A study of Homo sapiens with 6 samples.

Results

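TNFRSF6B, the soluble decoy receptor for FAS ligand, was examined together with RTEL1, the DNA helicase gene next to it, and with the receptors and ligand of the death receptor pathway in RNA sequencing of OVCAR8 cells. The 10 genes were taken by symbol from the 38637 genes of the deposited table: TNFRSF6B and RTEL1, the death receptors FAS, TNFRSF10A, TNFRSF10B and TNFRSF1A, the TRAIL decoy receptors TNFRSF10C and TNFRSF10D, the second TNF receptor TNFRSF1B, and TNFSF10, which encodes TRAIL. They were selected on the difference between treated and control samples of this series, which was already known, so their values in that contrast are a description and carry no test. OVCAR8 is a human ovarian cancer cell line, labelled wild type, and all samples come from this 1 line. Poly(A) RNA was sequenced from cells kept with DMSO, the solvent control, or with pladienolide B (plaB) at 2 nM, for 72 h in both cases, and each group has 3 samples. Pladienolide B binds SF3B1, the subunit of the U2 snRNP that helps select the branch site of introns, and the study asked what its inhibition does to ovarian cancer cells. Nothing in the labels says that the samples of a group came from separate cultures, so the p-values below measure only the spread between these samples. The lists of other genes were also chosen with earlier results of these data known, so their p-values and called shares are no independent support. 

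Death receptors are members of the TNF receptor superfamily with a cytoplasmic death domain. FAS and the TRAIL receptors TNFRSF10A and TNFRSF10B recruit the adaptor FADD and caspase-8 when their ligand binds, whereas TNFRSF1A binds TRADD first and can signal to NF-kB as well as to cell death. Decoy receptors bind the same ligands without passing on a death signal. TNFRSF6B has no membrane anchor and is secreted, and it binds FAS ligand, LIGHT (TNFSF14) and TL1A (TNFSF15). It is known for its high levels in many carcinomas.

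TNFRSF6B lies at chr20:63696652-63698684 of GRCh38, on the + strand. It starts 398 bases after the end of RTEL1 (chr20:63657810-63696253, + strand), and a joined gene, RTEL1-TNFRSF6B, runs through both. The table gives RTEL1-TNFRSF6B a row of its own. TNFRSF6B has 3 exons, with 1140 exonic bases in all, and introns of 136 and 757 bases. In GENCODE all of its exonic bases are also exons of RTEL1-TNFRSF6B. The canonical joined transcript enters exon 1 of TNFRSF6B at an acceptor 108 bases from the start of the gene and includes 1032, or 90.5%, of its exonic bases. The 3 acceptors of the gene are given here because the first is used by the joined form alone and the other two by both, with the last 25 intron bases, the first 5 exon bases and the AG of the splice site in capitals, from hg38 on the + strand.
joined transcript acceptor, chr20:63696735-63696764: ctgagccgcgctctccctgctccAGcaagg
TNFRSF6B intron 1 acceptor, chr20:63697303-63697332: ccctgttcttccctcctggctgcAGgcacc
TNFRSF6B intron 2 acceptor, chr20:63698255-63698284: ccgctgcctccccaccccactgcAGgagct
The first of these lies within exon 1 of TNFRSF6B, so that transcripts of the gene that start at its own first base keep it as exon sequence. The table holds 1 value per gene and no junction counts, so use of the acceptors was not analysed here.

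The 250 bases before the start of TNFRSF6B lie within the gap that separates it from RTEL1. They are printed from RefSeq, GRCh38.p14, because they are the sequence from which a separate TNFRSF6B transcript would start, with the only match to the Sp1 motif, GGGCGG on either strand, in capitals.
TNFRSF6B upstream, chr20:63696402-63696651, + strand: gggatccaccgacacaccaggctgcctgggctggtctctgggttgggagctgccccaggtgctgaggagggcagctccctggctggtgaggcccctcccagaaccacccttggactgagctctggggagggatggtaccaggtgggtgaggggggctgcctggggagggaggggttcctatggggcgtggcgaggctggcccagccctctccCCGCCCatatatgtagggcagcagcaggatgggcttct
An Sp1 match was held by 42.6% of 35116 RefSeq promoter windows of the same length. The window held 0 matches to the NF-kB consensus, which 5.21% of promoters hold, and 9 matches, some of them overlapping, to the looser form GGGNNNNNCC, which 54.4% hold. The looser form was the first one searched. Motifs for AP-1 (TGANTCA), STAT (TTCNNNGAA) and the TATA box (TATAAA) had 0 matches each, against 6.57%, 6.57% and 10.7% of promoters with a match. Promoter windows were looked up by symbol for 6 of the 10 genes only. TNFRSF10A, TNFRSF10B, TNFRSF10C and TNFRSF10D were not looked up. FAS had 3 windows, all with an Sp1 match, 1 with an NF-kB consensus match and 1 with an AP-1 match. RTEL1 had an Sp1 match in 1 of 2 windows, and the window of TNFRSF1B held 2. The window of TNFSF10 held a TATA box match. The looser NF-kB form matched in at least 1 window of each of these genes, whereas the window of TNFRSF1A held no match to any of the motifs.

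Each value below is a signal that the authors adjusted for library size, called adjusted reads here, and the whole reads behind it were recovered as described in the methods. Recovered reads on genes ranged from 25006154 to 26130882 in DMSO and from 22621338 to 24036812 in plaB. Differences were fitted with limma on log2(adjusted reads + 1) over the 16178 genes that passed a filter on low values, and 7 of the 10 genes passed it. The summed level of 13 epithelial and ovarian markers was 81358 to 87179 in DMSO and 81653 to 97055 in plaB, most of it from the keratins KRT8, KRT18 and KRT7, and PAX8, a transcription factor of Müllerian epithelium, had means of 4108 and 4341. CDH1, KRT19, MUC16, WT1 and ESR1 were low, with means of 8.34 to 23.8 in DMSO. Of the 12 markers tested, 4 rose (KRT8, KRT18, CDH1 and FOLR1) and 3 fell (KRT7, MUC1 and MSLN). Among all tested genes, 22.4% rose and 25.2% fell, 47.6% together (limma, adjusted p below 0.05). Of 10 immune markers, 7, including PTPRC and CD3E, had at most 3 reads in any sample, and the summed level of all 10, mostly CD68, was 1136 to 1295 in DMSO and 1558 to 1643 in plaB. The summed level of 8 endothelial and stromal markers was 7060 to 7236 in DMSO and 5988 to 6674 in plaB, nearly all of it COL1A1. The part of these marker genes in the results was not tested, and in bulk samples fewer cells of a type and less RNA per cell cannot be told apart.

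TNFRSF6B had the largest difference of the 7 genes. Its adjusted reads were 2510, 2803 and 2573 in the DMSO samples and 8688, 7858 and 8806 in the plaB samples. Every plaB sample was above every DMSO sample, and the lowest plaB value lay far above the highest DMSO value. The means were 2629 ± 154 (SD, n = 3) and 8451 ± 516 (SD, n = 3), 3.21 times as high with plaB, and the log2 fold change was 1.68 (standard error, SE, 0.05). Of the 16178 tested genes, 127, or 0.785%, had a change as large in either direction. The recovered reads behind these values were 2667 to 2781 in DMSO and 7361 to 8787 in plaB, so that counting error is small beside the spread between samples.

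RTEL1, which encodes a helicase that protects telomeres, was lower with plaB. It had 1351, 1483 and 1413 adjusted reads in DMSO and 874, 970.3 and 1048 in plaB, without overlap. The mean went from 1415 ± 66.1 to 964 ± 87.3 (SD, n = 3 each), 68.1% of the DMSO level, a log2 fold change of -0.56 (SE 0.07). The neighbours thus differed in opposite directions, although 95.2% of the exonic bases of the canonical RTEL1 transcript are shared with RTEL1-TNFRSF6B.

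The row for the joined gene RTEL1-TNFRSF6B stood between them. Its adjusted reads were 3328, 3715 and 3343 in DMSO and 7923, 7329 and 8261 in plaB, a log2 fold change of 1.18 (SE 0.05), which is given without a test because the row shares its exons with the genes chosen. All 3 plaB values were above all 3 DMSO values. In recovered reads, the joined row held more than TNFRSF6B in 3 of 3 DMSO samples and fewer in 3 of 3 plaB samples, for example 3535 against 2667 in DMSO replicate 1 and 7602 against 8336 in plaB replicate 1. The sum of the RTEL1 and TNFRSF6B rows was larger than the joined row in each sample, by 566 to 680 reads in DMSO and by 1405 to 1590 in plaB. A sum of 0.916 times the RTEL1 reads and 0.823 times the TNFRSF6B reads gave the joined row to within 2.09% in all 6 samples. These 2 factors were fitted to the same 6 samples and are a description. How reads in shared exons were assigned is not given in the sources used here. The reads of the joined form and of the separate genes therefore cannot be told apart, and the levels of all 3 rows are uncertain. The joined row may hold reads that the RTEL1 and TNFRSF6B rows also count. Its log2 fold change is thus no measure of the joined transcript alone.

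ARFRP1, which encodes a small GTPase of the Golgi, lies on the opposite strand and meets the 3′ end of TNFRSF6B, with 43 exonic bases in common, 3.77% of those of TNFRSF6B. It rose from 787, 766 and 775 adjusted reads in DMSO to 1158, 1202 and 1232 in plaB, and the groups did not overlap. Its log2 fold change was 0.62 (SE 0.06, limma adjusted p = 1.2e-07). Whether reads were assigned by strand is not given in the sources used here, and the part of the shared bases in the difference of either gene was not tested.

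**Figure D1:**
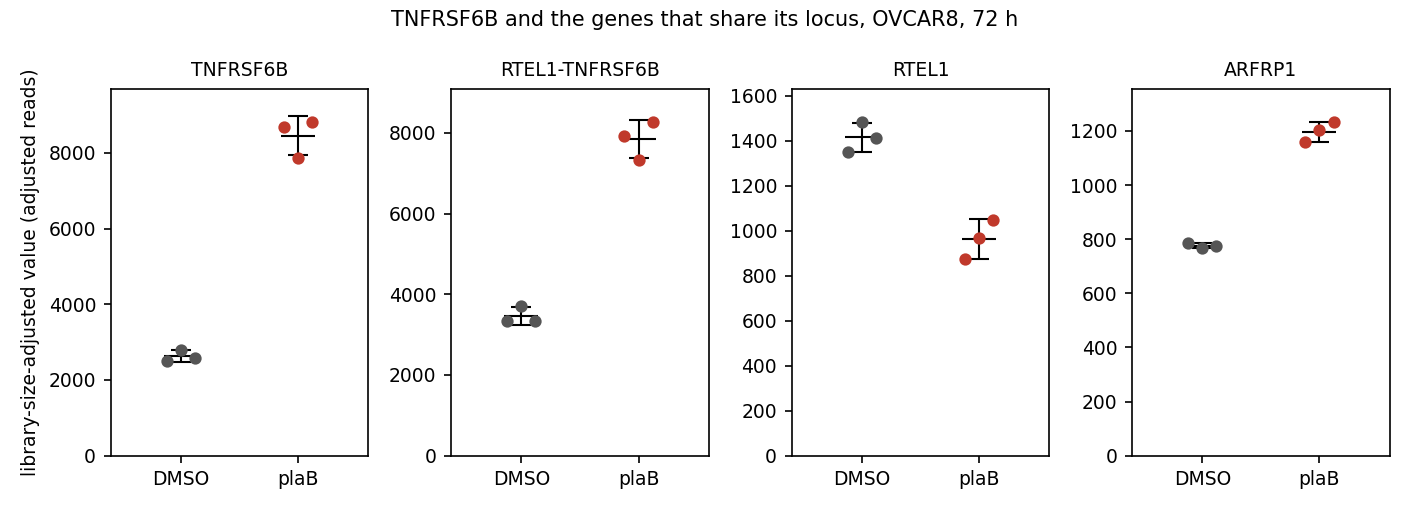
Library-size-adjusted reads (vertical axes from 0, a scale for each panel) of TNFRSF6B, RTEL1-TNFRSF6B, RTEL1 and ARFRP1 in DMSO and plaB samples. Points are the 3 samples of a group, and bars are the mean and SD. TNFRSF6B goes from about 2629 to 8451 and RTEL1 from 1415 to 964, and in no panel do the groups overlap.

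Among the 33 other tested neighbours within 500 kb of TNFRSF6B, with the genes under study and the joined row left out, 10 rose and 5 fell (limma, adjusted p below 0.05). The median log2 fold change of the 33 was 0.083. Over all 16178 tested genes, 22.4% rose and 25.2% fell, 47.6% together, and the median was near 0 (-0.0042). With the joined row counted, 11 of 34 were higher and 5 lower, with a median of 0.11. That row shares exons with TNFRSF6B, so its place among the higher genes is no separate result. Upstream of RTEL1, STMN3, which encodes a regulator of microtubules, had 70.3, 94.7 and 81.3 adjusted reads in DMSO and 123, 82.0 and 151 in plaB, and its groups overlapped (log2 fold change 0.49, SE 0.20, limma adjusted p = 0.049). Its call was lost in 6 of 11 alternative fits, among them those without DMSO replicates 1 or 3 or plaB replicates 1 or 3. Downstream, past ARFRP1, the transcriptional repressor gene ZGPAT rose by 0.20 (SE 0.07, limma adjusted p = 0.024), a call that was lost without DMSO replicate 3 or plaB replicate 2. One neighbour passed a log2 fold change of 1, C20orf204, an open reading frame 335 kb downstream, which had 0 to 1 reads in DMSO and 16 to 23 in plaB.

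**Figure D2:**
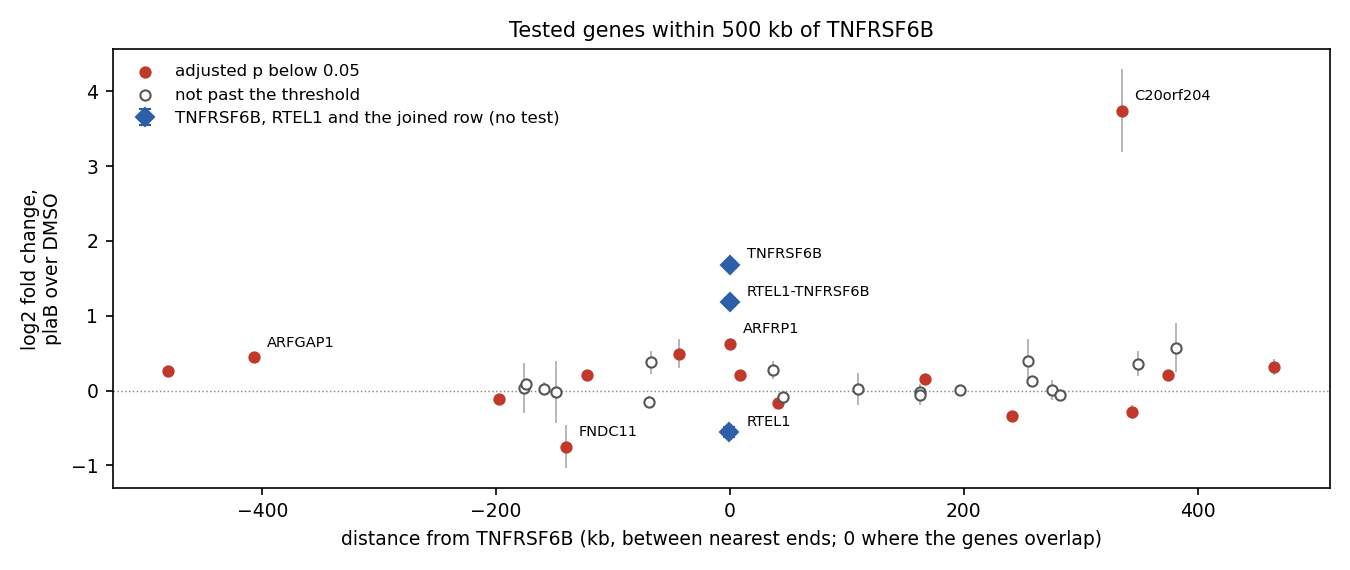
Log2 fold change of plaB over DMSO (vertical axis, bars are standard errors) against distance from TNFRSF6B in kb (horizontal axis, 0 where genes overlap) for the 33 other tested neighbours. Filled points passed an adjusted p of 0.05, 10 above 0 and 5 below. The 3 diamonds, TNFRSF6B at 1.68, RTEL1-TNFRSF6B at 1.18 and RTEL1 at -0.56, are shown without a test.

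FAS, the receptor of FAS ligand and the signalling counterpart of TNFRSF6B, was slightly lower with plaB. Its adjusted reads were 649, 660.2 and 661 in DMSO and 548, 581 and 513 in plaB. The 3 DMSO values lay within a narrow band above all plaB values. Means were 657 ± 6.35 and 548 ± 34.1 (SD, n = 3 each), 83.4% of the DMSO level, with a log2 fold change of -0.26 (SE 0.07). A change of this size or larger was seen in 44.3% of all tested genes. FAS shares 1.32% of its exonic bases with ACTA2, on the opposite strand, which had 45 to 70 reads in DMSO and 47 to 57 in plaB. A larger share, 6.48%, is common to ENSG00000286116, also on the opposite strand, for which no value was given. STAMBPL1, on the same strand as FAS, shares 0.566%. The antisense gene FAS-AS1 had 0 reads in each DMSO sample and 1, 1 and 3 in the plaB samples.

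Of the death receptors for TRAIL, TNFRSF10A (DR4) had 324, 324 and 332 adjusted reads in DMSO and 445, 485 and 436 in plaB. Its plaB samples were all above its DMSO samples. The mean was 326 ± 4.70 in DMSO and 455 ± 26.2 in plaB (SD, n = 3 each), 1.40 times as high, a log2 fold change of 0.48 (SE 0.08). TNFRSF10A-DT, a transcript annotated on the same strand, shares 266 exonic bases with TNFRSF10A and did not pass the test (78 to 94 reads in DMSO, 77 to 102 in plaB, log2 fold change 0.18, limma adjusted p = 0.38). TNFRSF10B (DR5), the other TRAIL receptor with a death domain, was the more abundant in reads. It had 2587, 2262 and 2598 adjusted reads in DMSO and 3373, 3287 and 3136 in plaB. DMSO replicate 2 was the lowest of the 6 samples, and the groups did not overlap. With means of 2482 ± 191 and 3265 ± 120 (SD, n = 3 each), TNFRSF10B was 1.32 times as high in plaB, with a log2 fold change of 0.40 (SE 0.05). RHOBTB2, on the opposite strand, shares 377 exonic bases with it, 7.52% of those of TNFRSF10B, and had a log2 fold change of 0.18 (SE 0.07, limma adjusted p = 0.047), no longer called in 8 of 11 alternative fits, which include each sample left out except DMSO replicate 2.

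Of the membrane-bound TRAIL decoys, TNFRSF10D (DcR2), which has a truncated death domain, had 627, 655 and 632 adjusted reads in DMSO and 598, 517 and 552 in plaB. Its values were lower in all plaB samples, and the nearest samples of the groups were 627 and 598. The means were 638 ± 15.04 and 556 ± 40.5 (SD, n = 3 each), 87.1% of the DMSO level, a log2 fold change of -0.20 (SE 0.07). TNFRSF10C (DcR1), which is held to the membrane by a lipid anchor, was close to absent, with 6, 7 and 7 reads in DMSO and 2, 8 and 4 in plaB. Its groups overlapped, and no fold change is given at this depth.

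TNFRSF1A, the main receptor of TNF, had the most adjusted reads of the 10 genes in DMSO. They were 4685.1, 4242 and 4379.9 in DMSO and 4784, 4685.4 and 5038 in plaB. The highest DMSO sample and the lowest plaB sample were almost the same, so the groups met without overlapping. The mean was 4436 ± 227 in DMSO and 4836 ± 182 in plaB (SD, n = 3 each), 1.09 times as high, a log2 fold change of 0.13 (SE 0.05). TNFRSF1B, the TNF receptor without a death domain that is typical of immune cells, had 0, 2 and 1 reads in DMSO and 0, 4 and 2 in plaB. TNFSF10, the TRAIL ligand, had 2, 1 and 7 reads in DMSO and 0, 7 and 5 in plaB. For both genes the groups overlapped, and a difference was not detectable at this depth.

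Of the 7 genes that passed the filter, 4 counted among the genes called higher and 3 among those called lower, against 22.4% and 25.2% of all tested genes (47.6% together). The groups did not overlap for the 7, against 55.3% of tested genes. The genes were picked for this contrast, and nothing is read from either count. TNFRSF10D and TNFRSF1A were no longer called when DMSO replicate 2, DMSO replicate 3 or plaB replicate 3 was left out. TNFRSF1A alone was lost without plaB replicate 1 or with no filter, and TNFRSF10D alone without plaB replicate 2 or with DESeq2. Their log2 fold changes stayed between -0.26 and -0.15 for TNFRSF10D and between 0.094 and 0.17 for TNFRSF1A.

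**Figure D3:**
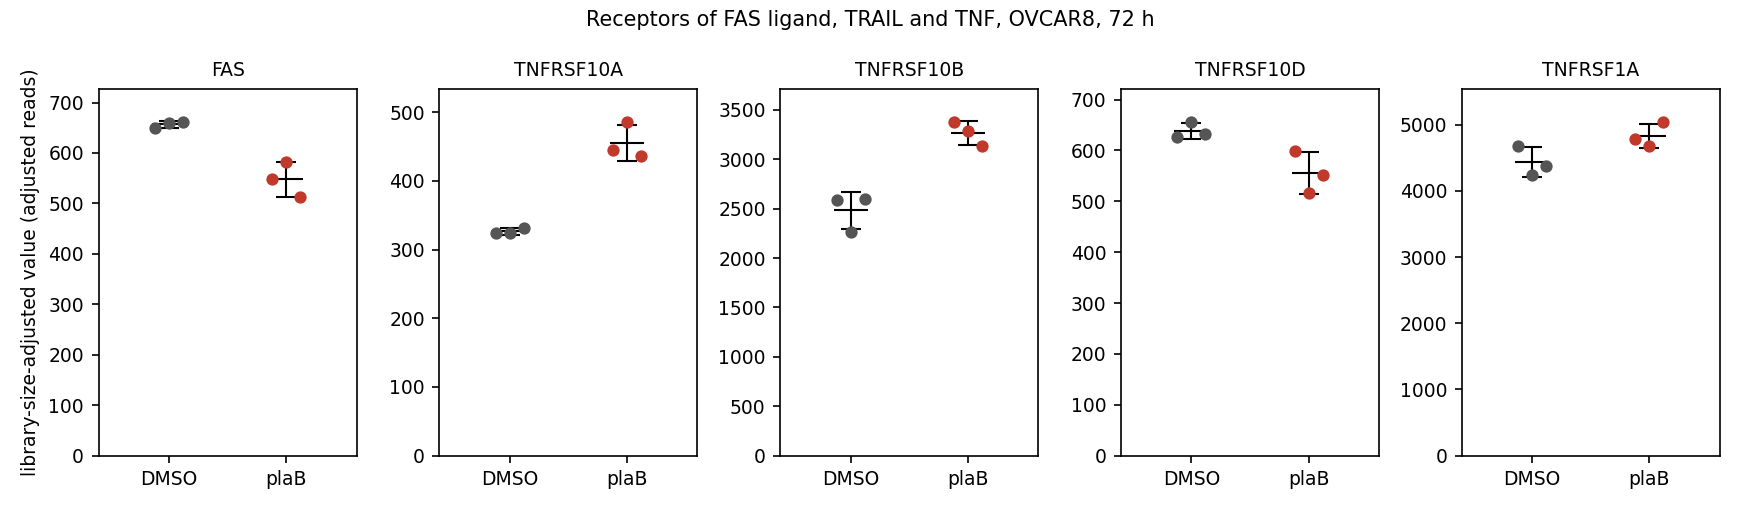
Library-size-adjusted reads (vertical axes from 0, a scale for each panel) of FAS, TNFRSF10A, TNFRSF10B, TNFRSF10D and TNFRSF1A. Points are the 3 samples of a group, bars are the mean and SD. TNFRSF10A and TNFRSF10B are higher with plaB, FAS and TNFRSF10D lower, and the groups of TNFRSF1A meet at about 4685.

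To compare genes with each other, the adjusted reads were divided by the length of all exons annotated in GENCODE. The annotation on which reads were counted is not given in the sources used here and may differ from it. TNFRSF6B then had the highest level in both groups, 2306 ± 135 adjusted reads per kb in DMSO and 7413 ± 453 in plaB (SD, n = 3 each). It was followed in DMSO by TNFRSF1A (1055 ± 53.9 per kb), TNFRSF10B (495 ± 38.1), TNFRSF10D (181 ± 4.25), RTEL1 (166 ± 7.74), TNFRSF10A (112 ± 1.61) and FAS (22.4 ± 0.216). TNFRSF10C, TNFSF10 and TNFRSF1B came last, at 4.16, 0.928 and 0.260 per kb. Neighbours in this order did not overlap in DMSO, apart from TNFSF10 and TNFRSF1B. In plaB the order was the same except that TNFRSF10A, at 156 ± 8.96 per kb, passed RTEL1, at 113 ± 10.2. It then lay beside TNFRSF10D at 157 ± 11.4, and the samples of these 2 genes overlapped. FAS has 61 annotated transcripts whose exons add up to 29313 bases, against 3696 in the canonical one. With canonical lengths FAS had 178 ± 1.72 per kb in DMSO, overlapping TNFRSF10D at 181 ± 4.25, and 148 ± 9.23 in plaB, still the lowest mean of the 7 genes there, and TNFRSF1A had 2043 ± 104, next below TNFRSF6B. With either length, TNFRSF6B stood above the other genes in each sample of its group. The margin in DMSO was small with canonical lengths, 2202 in the lowest TNFRSF6B sample against 2158 in the highest TNFRSF1A sample. The TNFRSF6B row may also hold reads of the joined form, so its rank as a separate gene is uncertain.

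**Figure D4:**
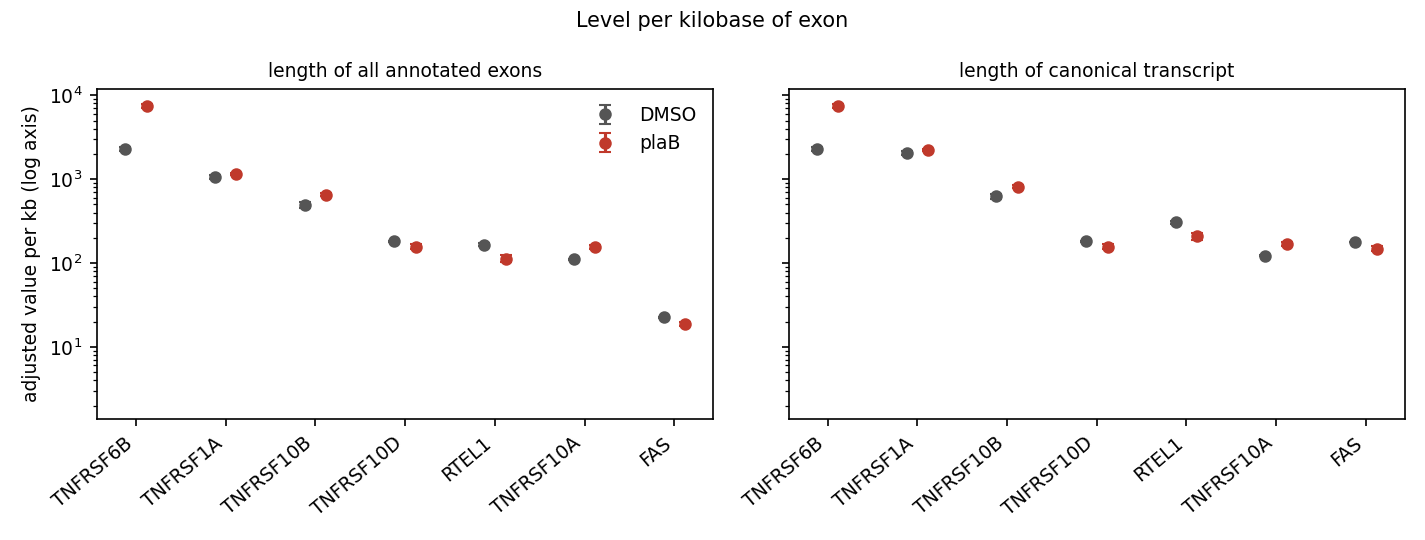
Adjusted reads per kb of exon (log axis) of the 7 tested genes in DMSO and plaB, with the length of all annotated exons on the left and of the canonical transcript on the right. Points are means of 3 samples and bars the SD. TNFRSF6B is highest in both panels, and FAS moves from 22.4 to 178 per kb in DMSO with the length used.

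The balance of decoy to signalling receptor was taken within each sample as a ratio of levels per kb. The ratio of TNFRSF6B to FAS, with the length of all exons, was 99.4, 109 and 100.1 in DMSO and 407, 348 and 441 in plaB, and the groups were far apart. The log2 ratio was 6.68 ± 0.08 in DMSO and 8.63 ± 0.18 in plaB (SD, n = 3 each), a difference of 1.95 or 3.86-fold. With canonical lengths the ratio was 13.0 in DMSO and 50.04 in plaB as geometric means, and the difference was the same. The ratio of the TRAIL decoys TNFRSF10C and TNFRSF10D to the TRAIL death receptors TNFRSF10A and TNFRSF10B went the other way. It was 0.289, 0.338 and 0.290 in DMSO and 0.207, 0.185 and 0.205 in plaB, with every plaB sample below every DMSO sample. The difference in log2 ratio was -0.62, or 0.652-fold. TNFRSF10C added little to this ratio, at 4.16 and 3.14 per kb in DMSO and plaB, against 181 and 157 for TNFRSF10D. TNFRSF10B made up most of the other side, at 495 and 652 per kb, against 112 and 156 for TNFRSF10A. These ratios rest on the gene values already given and are no separate evidence. They compare levels of RNA, not of receptor on the surface or secreted. Reads of the joined form may be part of the TNFRSF6B row, so its ratio to FAS is uncertain too.

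The ligands that TNFRSF6B binds were near or at 0 in these cells. FASLG had 0 reads in each DMSO sample and 0, 1 and 0 in the plaB samples. TNFSF14 had 3, 8 and 8 reads in DMSO and 2, 3 and 2 in plaB, and TNFSF15 had 2, 0 and 0 in DMSO and 1, 4 and 4 in plaB. The signalling receptors of these ligands were measured. LTBR, which binds LIGHT, had 2256 to 2431 reads in DMSO and 2116 to 2249 in plaB, with a log2 fold change of -0.0099 that did not pass the test (limma adjusted p = 0.88). TNFRSF14, another receptor of LIGHT, had 38 to 66 reads in DMSO and 35 to 52 in plaB (log2 fold change -0.087, SE 0.23, limma adjusted p = 0.79). TNFRSF25, the death receptor for TL1A, had 129 to 175 reads in DMSO and 111 to 131 in plaB (log2 fold change -0.26, SE 0.14, limma adjusted p = 0.14).

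The lists from here on were chosen with earlier results of these data known, so their p-values and called shares describe this contrast only. Of 17 other TNF ligands, 8 were tested and 1 rose, against the 22.4% of all tested genes that did. This was TNF itself, the ligand of TNFRSF1A, with 319, 372 and 334 adjusted reads in DMSO and 742, 506 and 568 in plaB. Its plaB samples were more spread than its DMSO samples, and the groups did not overlap. The means were 342 ± 27.3 and 605 ± 122 (SD, n = 3 each), 1.77 times as high, with a log2 fold change of 0.81 (SE 0.11, limma adjusted p = 1.6e-05). The median log2 fold change of the 8 ligands was 0.068.

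Among 21 other TNF receptors, 14 were tested, of which 5 rose and 1 fell, 42.9% against 47.6% of all tested genes, with a median log2 fold change of 0.10. TNFRSF11A (RANK), a receptor of osteoclast and mammary biology, rose from 46.9, 47.4 and 65.5 adjusted reads to 107, 114 and 98.2 (log2 fold change 1.001, SE 0.18, limma adjusted p = 0.00020). TNFRSF8 (CD30) rose from 101, 89.7 and 96.4 to 221, 171 and 161 (log2 fold change 0.93, SE 0.14, limma adjusted p = 4.5e-05). The groups of these genes did not overlap. TNFRSF21 (DR6), another receptor with a death domain, rose from 134, 224 and 172 to 317, 294 and 321, a log2 fold change of 0.84 (SE 0.14, limma adjusted p = 0.00012). NGFR, the low-affinity neurotrophin receptor, rose by 0.74 (SE 0.29, limma adjusted p = 0.046) with groups that overlapped, and this call was lost in 8 of 11 alternative fits, including edgeR, DESeq2 and those without DMSO or plaB replicate 2 or 3. The fifth, TNFRSF12A, the TWEAK receptor, was abundant at 5532 ± 183 adjusted reads in DMSO and rose by 0.22, and the one that fell was RELT, by 0.30 on the log2 scale.

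Downstream of the death receptors, all 14 genes of the death signalling list were tested, with 6 higher and 2 lower, 57.1% against 47.6% of all tested genes, and a median log2 fold change of 0.083. CFLAR, which encodes c-FLIP, an inhibitor of caspase-8 at the receptor, fell from 2944, 2905 and 2994 adjusted reads in DMSO to 1830.4, 2090.2 and 1847 in plaB. The lowest DMSO sample stood well above the highest plaB sample. Its mean in plaB was 65.2% of that in DMSO (log2 fold change -0.62, SE 0.05, limma adjusted p = 7.1e-08). TRADD, the adaptor of TNFRSF1A, fell from 513, 449 and 522 to 325, 314 and 373 (log2 fold change -0.55, SE 0.09, limma adjusted p = 8.3e-05). CASP8, the initiator caspase of the pathway, rose by 0.49 (SE 0.07, limma adjusted p = 1.5e-05), from 493 ± 18.4 to 692 ± 16.1 adjusted reads (SD, n = 3 each). FADD, the adaptor of FAS and the TRAIL receptors, did not pass the test, at 1084 ± 57.4 and 1143 ± 38.8 (SD, n = 3 each). RIPK1, XIAP and DIABLO also rose, by 0.20 to 0.23 on the log2 scale, and they include XIAP, an inhibitor of caspases, as well as DIABLO, which opposes it.

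The 19 genes of the TNF receptor complex list were all tested, and 7 rose and 4 fell, 57.9% against 47.6% of all tested genes, with a median log2 fold change of 0.063. TNFAIP3 (A20), a deubiquitinase that ends NF-kB signalling, rose from 633, 627 and 699 adjusted reads to 1083, 1014 and 769.7 (log2 fold change 0.53, SE 0.10, limma adjusted p = 0.00022). PlaB replicate 3 was nearest to the DMSO samples. The other 6 that rose had log2 fold changes of 0.19 to 0.33, among them the deubiquitinases CYLD and OTULIN and RNF31, the catalytic subunit of the linear ubiquitin ligase. RBCK1, another subunit of that ligase, fell by 0.16 on the log2 scale, though not in 7 of 11 alternative fits, 5 of which leave out 1 sample other than DMSO replicate 2, and MAP3K7 (TAK1), the kinase that the complex activates, fell by 0.36.

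Of 6 genes for the shedding of receptors, 4 were tested and 1 rose, where 22.4% of all tested genes rose and 47.6% were called in either direction. ADAM17, the protease that releases TNF and its receptors, had a log2 fold change of 0.054 and did not pass (limma adjusted p = 0.36). RHBDF1, which encodes iRhom1, a cofactor of ADAM17, rose by 0.21 (SE 0.07, limma adjusted p = 0.024), whereas RHBDF2 had -0.19 and missed the threshold (limma adjusted p = 0.054). RHBDF1 was not called without DMSO replicate 2, DMSO replicate 3 or plaB replicate 2. Among 10 transcription factors with known ties to these receptor genes, 9 were tested, and 3 rose and 2 fell, 55.6% against 47.6% of all tested genes, with a median of -0.011. DDIT3 (CHOP), a stress factor known to act on TNFRSF10B, rose from 419, 282 and 444 adjusted reads to 619, 555 and 536 (log2 fold change 0.60, SE 0.13, limma adjusted p = 0.00081). TP73 and RELA rose by 0.33 and 0.23, while ATF4 and SP1 fell by 0.36 and 0.33 on the log2 scale.

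**Figure D5:**
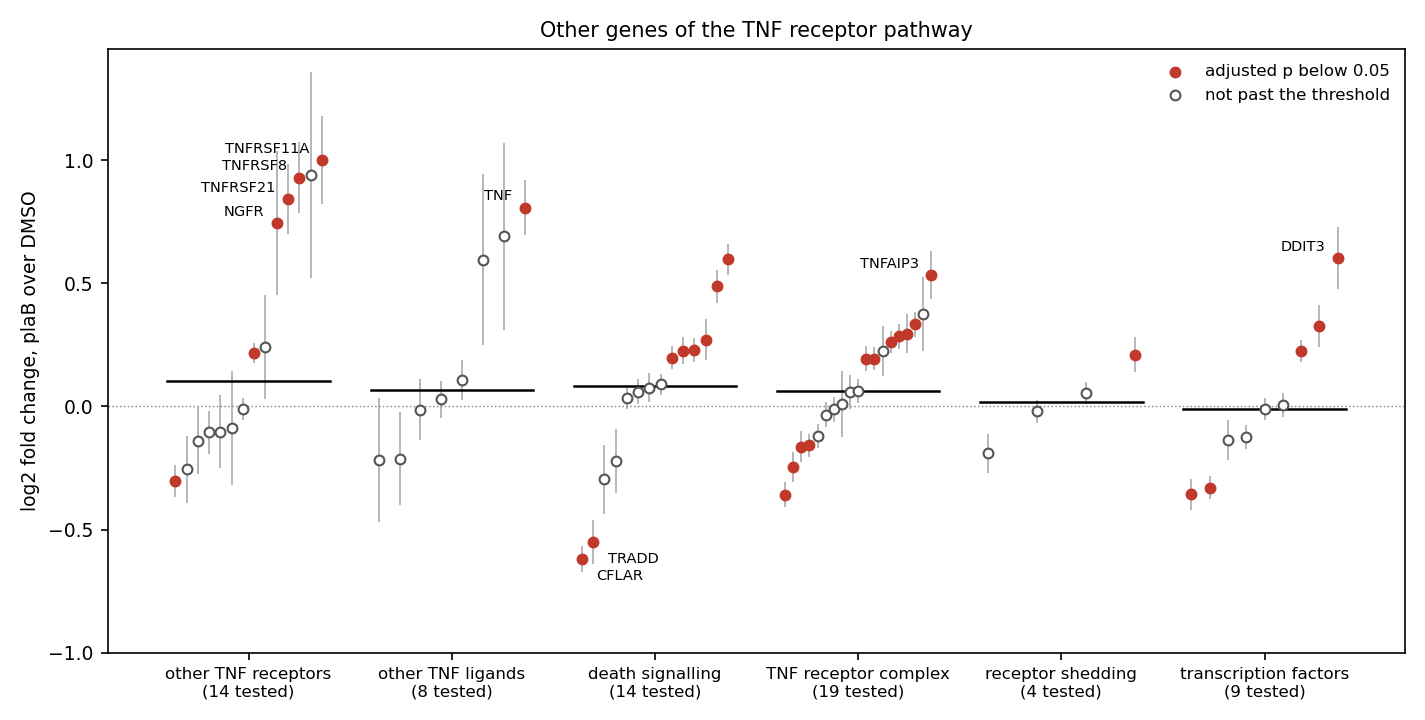
Log2 fold change of plaB over DMSO (vertical axis, grey bars are standard errors) of each tested gene in 6 lists around the receptors. Filled points passed an adjusted p of 0.05, and black lines are list medians, which lie between -0.011 and 0.10. Names are given for called genes that moved by 0.5 or more and are described in the text. The lists were chosen with earlier results of these data known.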

How the data were processed

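RNA was measured in 3 DMSO and 3 plaB samples. Per the labels, reads were processed with HISAT2, HTSeq 0.12.4 and DESeq2. The labels name hg19 and the methods hg38. Gene positions in the table match GRCh38, since 99.8% of 35926 symbols overlap their RefSeq position. The authors deposited 1 library-size-adjusted signal per gene and sample, which is edgeR's quantile adjustment of counts at a dispersion of 0.0027. Inverting the adjustment gave whole reads for 100% of the 96432 values of 10 or more, to within 0.02. The authors' fold changes, p-values and q-values were also deposited and were not used.

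Values were tested with limma 3.58.1 (variance trend, two-sided, Benjamini-Hochberg) on log2(value + 1), which understates changes of genes with few reads, after edgeR's filterByExpr (edgeR 4.0.16, minimum 10 in 3 samples, 15 in total). The script was tested on simulated data. Alternatives were a pseudocount of 0.1, no filter, a replicate block, each sample left out, and edgeR or DESeq2 1.42.0 on recovered reads. Exons came from GENCODE.

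The genes and lists were chosen with earlier results of these data known. Of each list, genes with an adjusted p below 0.05 and a log2 fold change of at least 0.5 in size are named, or otherwise the 2 with the smallest p, and of the neighbours those next to or overlapping TNFRSF6B or with a log2 fold change of at least 1. Other genes named were chosen after their values were seen. Some genes of the lists count in their totals but are not reported here by name.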

Additional observations from a re-analysis of the deposited data

How the results depend on the processing

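The 7 tested receptor and neighbour genes kept their direction in the 11 alternative fits, 77 values in all, each within 1 SD of the replicates. This was largely fixed in advance and is no support. Leaving out 1 of 3 samples cannot move a difference by a whole SD, nor reverse groups that do not overlap. The replicate block and the lack of a filter leave the fold change itself unchanged. TNFRSF6B stayed between 1.65 and 1.74 on the log2 scale. Between 6568 and 7836 genes passed the threshold under the alternatives, against 7695. Receptor shedding genes called were 0 to 1 and other TNF ligands 1 to 2 when a sample was left out, against 1 each. The 0 came without DMSO replicate 2 or 3, where limma gave 1 and 2 of them an unadjusted p below 0.05 (edgeR and DESeq2 on all samples called 1 each), and the 2 without plaB replicate 1 or 3. Of 30 other genes named as called, the epithelial and ovarian markers not counted, 24 were called in all 11 alternative fits. The calls of those markers were not followed through the alternatives. Same-numbered samples did not deviate together (correlations of -0.018, -0.018 and 0.0026), and with the replicate number as a block 7349 genes passed, and 2 shedding genes. With canonical lengths the DMSO levels per kb were 306.7 for RTEL1, 178 for FAS, 121 for TNFRSF10A, 621 for TNFRSF10B and 2043 for TNFRSF1A, and the DMSO log2 ratios 3.70 for TNFRSF6B to FAS and -2.002 for TRAIL decoys to death receptors. Values under 10 reads (TNFRSF10C, TNFRSF1B, TNFSF10 and the ligands of TNFRSF6B) are limited by depth. With 1 cell line, 1 dose and 1 time, and 1 value per gene, neither isoforms nor protein were measured.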

Other observations

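The 5 genes whose values over the 6 samples were most like those of TNFRSF6B were sought among 13211 tested genes with a mean of at least 50, by the root mean square difference of log2(value + 1), each gene centred on its mean over the samples. MYPN, which encodes a sarcomere protein, was nearest, at 0.0958. It had 310.0, 291 and 274 adjusted reads in DMSO and 976, 836 and 1067 in plaB, with the lowest plaB value in replicate 2, as for TNFRSF6B. LOC107984338 (0.14), GPAT3, an enzyme of glycerolipid synthesis (0.14), MAP2K3, a kinase upstream of p38 (0.16), and PSG9, a pregnancy-specific glycoprotein (0.16), came next. MAP2K3 was the most abundant, with means of 807 ± 91.9 in DMSO and 2172 ± 112 in plaB (SD, n = 3 each). With 2 groups of 3 samples, likeness mostly reflects the size of the difference between groups, and it says nothing of shared control.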
